A study of Mus musculus with 8 samples.

Results

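The genes described here are the 40 mouse splicing factor genes whose symbols start with Srsf, Hnrnp, Sf3a or Sf3b. They were taken by symbol from the protein-coding genes of the GENCODE M21 annotation, with no measured value used, and made up 40 of the 52338 genes with values in the table. There were 11 Srsf genes, 20 Hnrnp genes and 9 Sf3 genes, the last being 3 Sf3a and 6 Sf3b genes. Their transcripts were sequenced in cultured mouse embryonic stem cells, which can form every tissue of the body, in a study of the long intergenic non-coding RNA linc1393. The 8 libraries formed 4 groups of 2, numbered replicate 1 and replicate 2 in each. The 3 treated groups were wild-type cells given a reagent named for linc1393: sh-linc1393 (sh), sd-linc1393 (sd) and dd-linc1393 (dd). The control group was wild-type cells left untreated. What sd and dd abbreviate is not stated by the labels, and the linc1393 transcript itself was not analysed here. Since the controls received nothing, an effect of linc1393 and an effect of receiving a reagent cannot be told apart. Separate cultures are not mentioned in the labels, so the p-values reflect the spread between these libraries alone, which may be technical.

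Splicing removes introns from pre-messenger RNA in the spliceosome, a large machine built from small nuclear ribonucleoproteins. SR proteins bind exonic enhancers through RNA recognition motifs and recruit the machinery through domains rich in arginine and serine. Many hnRNP proteins coat nascent transcripts and, in a large number of exons, oppose the SR proteins. SF3a and SF3b are parts of the U2 particle, which recognises the branch point of the intron.

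Many of these genes have processed pseudogenes, intronless copies made by reverse transcription of the messenger RNA. A short read from such a stretch fits the gene and its copies equally well. A stretch of 31 bases from the coding sequence of Hnrnpa1, at chr15:103243976-103244006 on the plus strand of GRCm38, was present in 12 other annotated genes. A stretch from the coding sequence of Hnrnpa3, at chr2:75661926-75661956 on the plus strand, was present in 30 other annotated genes. They are shown because the levels of both genes depend on where such reads were assigned.
Hnrnpa1: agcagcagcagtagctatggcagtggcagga
Hnrnpa3: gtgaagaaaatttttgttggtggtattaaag

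Libraries of the same replicate number resembled each other more than libraries of the same group. Depth, as reads worked back from the FPKM and exon lengths, was 13972322 and 13738591 in sh replicates 2 and 1, 15365414 and 20346942 in sd replicates 2 and 1, 20387065 and 19161799 in dd replicates 2 and 1, and 3658368 and 6415130 in control replicates 2 and 1. Across the 39 splicing factor genes tested, Spearman correlations were 0.906 to 0.988 between libraries of the same number and 0.709 to 0.844 between libraries of the same group. Genes are not independent replicates, so these correlations describe the libraries only. Of 1407 annotated olfactory receptor genes and pseudogenes, known for their role in smell, 45% to 94% had a value above 0 in the replicate 2 libraries and 4.48% to 6.97% in the replicate 1 libraries. All 12 stem cell markers examined were above 0 in every library, and their summed level was 7003 to 10106 FPKM in replicate 2 and 1500 to 1960 FPKM in replicate 1. That gap was carried by Dppa5a, without which the other markers summed to 1137 to 1800 FPKM in replicate 2 and 1127 to 1467 FPKM in replicate 1. Of 10 fibroblast markers, none was at 0 in replicate 2 and 4 to 8 were at 0 in replicate 1, and their summed level without Vim was 2.43 to 9.06 FPKM in replicate 2 and 0.49 to 0.824 FPKM in replicate 1. The labels do not say whether a replicate number marks a batch. The part of these differences in the results on the splicing factor genes was not tested.

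Levels are given in FPKM, which divides reads by gene length and by a library total. Srsf4 and Srsf12 were at 0 in at least 1 library and the other 38 genes in none. In all, 39 genes passed the filter of a mean of at least 1 FPKM. The plot of levels by library shows the whole set. Srsf4, which encodes an SR protein with a long arginine and serine domain, fell below that filter. It had 58 reads in sh, 39 in sd, 4 in dd and 15 in control among the replicate 2 libraries, and 0 reads in all 4 replicate 1 libraries. A count of 0 allowed up to 0.0613 FPKM in sh, 0.0414 in sd, 0.044 in dd and 0.131 in control replicate 1, counting error only. Srsf4 shares its strand and part of its genomic span with A930004J17Rik, so those genes may share reads.

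**Figure D1:**
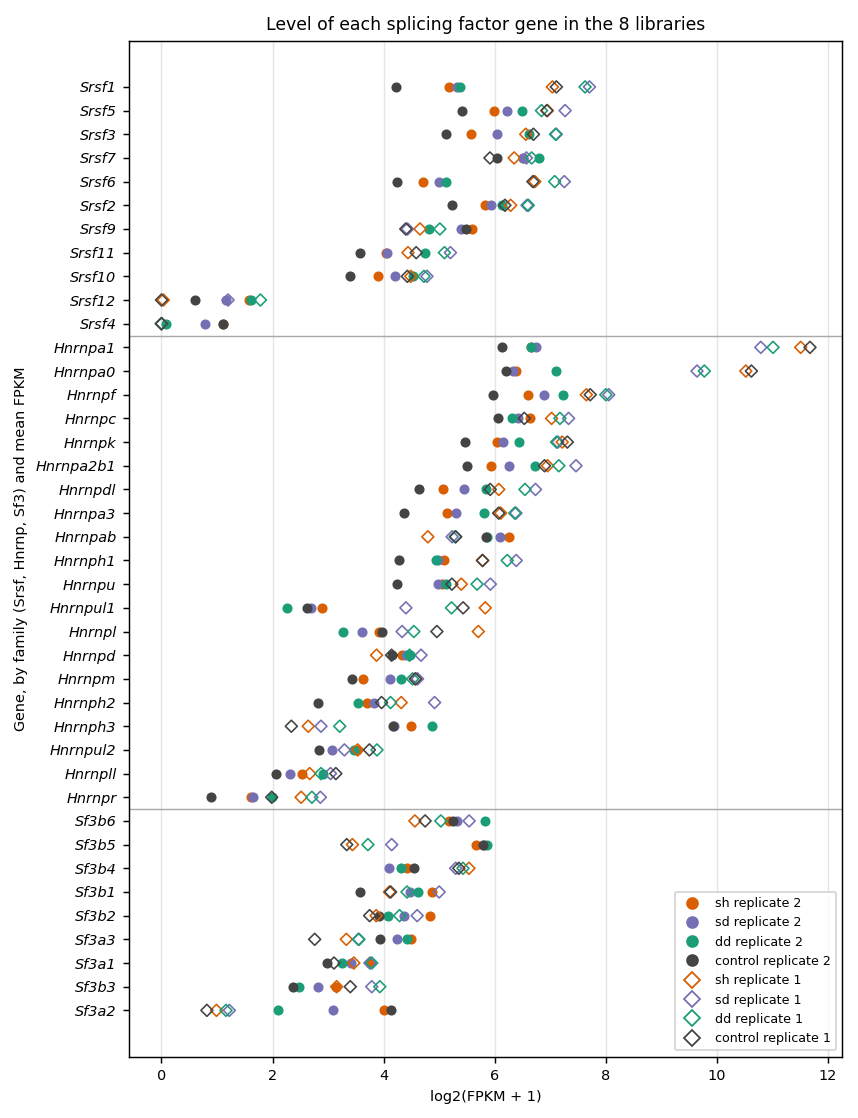
Level of each of the 40 genes in the 8 libraries, as log2(FPKM + 1), by family and mean level. Filled circles are replicate 2 libraries, open diamonds replicate 1 libraries, and colours are groups. Hnrnpa1 and Hnrnpa0 reach the highest levels in replicate 1, and their replicate 2 points lie far to the left of their replicate 1 points.

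Among the SR proteins, Srsf1, the founding member of the family, had the highest mean level over the 8 libraries, but not in replicate 2, where its median of 37.3 FPKM was below those of Srsf7 (89.9), Srsf5 (67.8), Srsf2 (57.8), Srsf3 (56.0) and Srsf9 (42.4). Srsf1 had 35.3 and 130 FPKM in sh replicates 2 and 1, 39.2 and 208 FPKM in sd replicates 2 and 1, 40.6 and 197 FPKM in dd replicates 2 and 1, and 17.6 and 137 FPKM in control replicates 2 and 1. Srsf5 had 62.5 and 122 FPKM in sh replicates 2 and 1, 73.2 and 153 FPKM in sd replicates 2 and 1, 88.7 and 114 FPKM in dd replicates 2 and 1, and 41.5 and 122 FPKM in control replicates 2 and 1. Srsf3, the smallest SR protein, had 46.9 and 93.2 FPKM in sh replicates 2 and 1, 65.2 and 137 FPKM in sd replicates 2 and 1, 97.2 and 136 FPKM in dd replicates 2 and 1, and 33.9 and 103 FPKM in control replicates 2 and 1. In all 3 genes the replicate 2 library of every group was the lower one, so group means carried large errors. For Srsf1 the means were 82.8 ± 67.2 FPKM in sh, 123 ± 119 FPKM in sd, 119 ± 110 FPKM in dd and 77.4 ± 84.5 FPKM in control (SD, n = 2 each). Over the 8 libraries, Srsf2 lay between 36.6 and 96.2 FPKM, Srsf9 between 20.1 and 47.5, Srsf10 between 9.48 and 26.5, and Srsf11 between 11.0 and 35.8. Srsf2 overlaps Mettl23 and Mfsd11, and Srsf1 overlaps Gm11508, each on the other strand.

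Hnrnpa1 and Hnrnpa0, which encode shuttling hnRNP proteins of the A/B class, had the highest levels of the set in every replicate 1 library. In replicate 2 Hnrnpf was the highest in sd and dd, Hnrnpa1 in sh and Hnrnpa0 in control. Hnrnpa1 had 100 and 2912 FPKM in sh replicates 2 and 1, 106 and 1769 FPKM in sd replicates 2 and 1, 99.6 and 2062 FPKM in dd replicates 2 and 1, and 68.7 and 3269 FPKM in control replicates 2 and 1. Hnrnpa0 had 82.8 and 1467 FPKM in sh replicates 2 and 1, 79.8 and 798 FPKM in sd replicates 2 and 1, 137 and 874 FPKM in dd replicates 2 and 1, and 72.7 and 1573 FPKM in control replicates 2 and 1. Hnrnpf, a regulator that binds runs of guanines, had 95.6 and 200 FPKM in sh replicates 2 and 1, 117 and 264 FPKM in sd replicates 2 and 1, 150 and 255 FPKM in dd replicates 2 and 1, and 61.8 and 210 FPKM in control replicates 2 and 1. In each of these genes the 4 replicate 2 values lay below all 4 replicate 1 values. Hnrnpf overlaps 4933440N22Rik and Gm43863 on the other strand. Hnrnpc, whose product binds uridine tracts, lay between 66.0 and 160 FPKM, and Hnrnpk, whose product binds cytosine-rich RNA, between 43.1 and 157 FPKM. Hnrnpa2b1 (44.5 to 175 FPKM) and Hnrnpa3 (19.6 to 82.3 FPKM), close relatives of Hnrnpa1, and Hnrnpdl (23.9 to 105 FPKM), a relative of Hnrnpd, were at similar levels. Hnrnpu, Hnrnph1, Hnrnpd and Hnrnpm ranged from 17.9 to 59.6, 18.3 to 82.7, 13.6 to 24.5 and 9.83 to 23.4 FPKM over the 8 libraries. The lowest Hnrnp genes were Hnrnpul2 (6.11 to 13.7 FPKM), Hnrnpll (3.16 to 7.81) and Hnrnpr (0.862 to 6.26).

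The Sf3 genes lay between 0.762 and 57.2 FPKM over the 8 libraries. Sf3b6, which encodes the subunit that touches the branch point adenosine, had 35.3 and 22.6 FPKM in sh replicates 2 and 1, 38.9 and 45.5 FPKM in sd replicates 2 and 1, 55.9 and 31.7 FPKM in dd replicates 2 and 1, and 36.9 and 25.8 FPKM in control replicates 2 and 1. Sf3b1, the large scaffold of SF3b and a recurrent mutation target in blood disorders, had 28.3 and 16.2 FPKM in sh replicates 2 and 1, 21.1 and 30.98 FPKM in sd replicates 2 and 1, 23.5 and 20.4 FPKM in dd replicates 2 and 1, and 10.9 and 16.5 FPKM in control replicates 2 and 1. Sf3b2, the subunit that pairs with Sf3b4, ranged from 12.4 to 27.5 FPKM over the 8 libraries. Neither Sf3b6 nor Sf3b1 kept the replicate numbers apart, and the highest Sf3b1 value was sd replicate 1.

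Summed over the 40 genes, the splicing factors held 0.160% of all FPKM in sh replicate 2, 0.144% in sd, 0.160% in dd and 0.102% in control, against 1.12% in sh replicate 1, 0.809% in sd, 0.811% in dd and 1.22% in control. Hnrnpa1 and Hnrnpa0 together made up 12.7% to 13.8% of that sum in the replicate 2 libraries and 52% to 73.2% in the replicate 1 libraries. Without them the remaining 38 genes held 0.0881% to 0.14% of all FPKM in replicate 2 and 0.328% to 0.388% in replicate 1. By rank among all genes with values, Hnrnpa1 stood at 1031 to 1441 in the replicate 2 libraries and at 25 to 37 in the replicate 1 libraries. The FPKM of Srsf1 relative to that of Hnrnpa1, whose product is its classical antagonist, moved with the number as well. Reads assigned to pseudogene copies of Hnrnpa1 are left out of that ratio. They were 26.1% to 62.3% of the reads of gene plus copies in replicate 2 and 0.11% to 0.38% in replicate 1. The part of these reads in the ratio was not tested. The level of Srsf1 was 35.3% of that of Hnrnpa1 in sh replicate 2, 36.9% in sd, 40.7% in dd and 25.6% in control, against 4.48% in sh replicate 1, 11.7% in sd, 9.53% in dd and 4.19% in control.

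**Figure D2:**
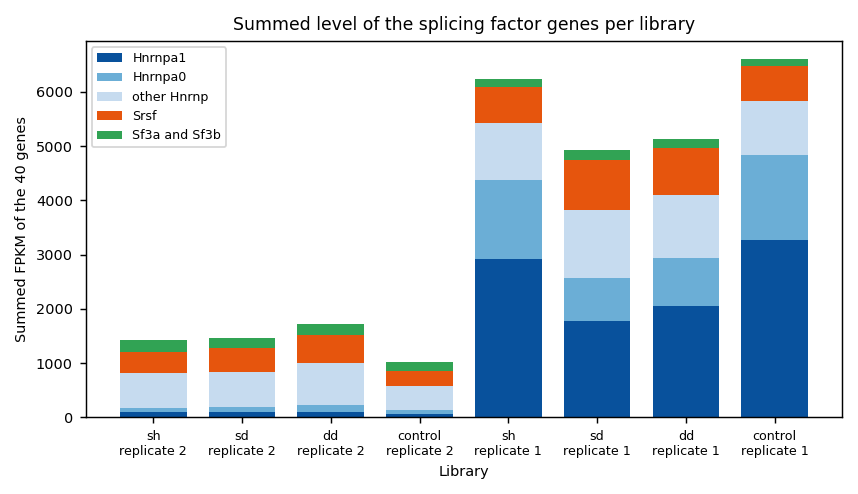
Summed FPKM of the 40 genes in each library, split into Hnrnpa1, Hnrnpa0, the other Hnrnp genes, the Srsf genes and the Sf3 genes. The 4 replicate 2 bars on the left reach 1031 to 1722 FPKM and the 4 replicate 1 bars on the right 4932 to 6613 FPKM, most of the difference being Hnrnpa1 and Hnrnpa0.

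The question of the series is what each reagent did relative to untreated cells. None of the 39 splicing factor genes tested was called in sh, sd or dd against control by limma with Benjamini-Hochberg adjustment over 14561 genes, and 0% of all genes were called. At an unadjusted p under 0.05, 32, 50 and 83 of all genes and 0 splicing factor genes passed in sh, sd and dd. With limma-voom on the recovered reads 0 genes were called, and 7, 11 and 24 genes had an unadjusted p under 0.05. With the replicate number as a block in limma 0 genes were called too. There 480, 945 and 1310 genes, among them 0, 3 and 10 splicing factor genes, had an unadjusted p under 0.05. Limma-voom with the block, a fit chosen after seeing the data, also called 0 genes. In it 442, 950 and 1487 genes, among them 0, 11 and 12 splicing factor genes, had an unadjusted p under 0.05. These p-values do not show that the levels were alike. In RNA from whole cultures, fewer cells of a kind and less RNA per cell cannot be told apart. The 3 comparisons share the same 2 control libraries, so their values are given side by side and were not correlated.

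As a description, the splicing factor genes leaned upward from control. In sh, 35 of 39 had a positive estimate, beside 65.5% of all genes tested, with a median log2 difference of 0.29, beside 0.15 over all genes. In sd, 31 of 39 were positive, beside 62.9%, with a median of 0.55 beside 0.17. In dd, 32 of 39 were positive, beside 53.6%, with a median of 0.47 beside 0.06. Within replicate 2 and within replicate 1 the medians were 0.51 and 0.04 in sh, 0.48 and 0.53 in sd, and 0.75 and 0.34 in dd. With median ratio scaling the medians became 0.08 in sh, 0.29 in sd and 0.32 in dd, and those of all genes -0.01, -0.02 and -0.05, and 26, 28 and 31 of 39 splicing factor genes were positive. In the fit without the replicate block the sh median was -0.21 without control replicate 2, which sets both sh libraries against control replicate 1 alone. With the block it stayed positive, at 0.15 to 0.47, whichever 1 library was left out. Again without the block, leaving out control replicate 1 gave medians of 0.80 in sh, 0.93 in sd and 1.01 in dd, and without control replicate 2 those of sd and dd were 0.07 and 0.17. Without sd replicate 1 the sd median was 0.14 and without sd replicate 2 it was 0.87.

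Markers of the cells were read in the same fits, and those named here were chosen after their values were seen. Of the 12 stem cell markers, 10 were positive in each of sh, sd and dd, with median log2 differences of 0.19, 0.43 and 0.40. Pou5f1, a core pluripotency factor, was below the control library of its number in every treated library, with 14.7 and 24.2 FPKM in sh replicates 2 and 1, 130 and 17.8 FPKM in sd replicates 2 and 1, 53.1 and 21.03 FPKM in dd replicates 2 and 1, and 251.1 and 83.1 FPKM in control replicates 2 and 1. Its log2 differences were -2.87 in sh, -1.55 in sd and -2.08 in dd, with unadjusted limma p of 0.0397, 0.212 and 0.11 and an adjusted p of 1 in each. Sox2, its partner factor, had 19.7 FPKM in sh replicate 2, against 291 FPKM in control replicate 2, and 177 FPKM in sh replicate 1, against 200 FPKM in control replicate 1. Of the 14 early differentiation markers 7 were tested, and their median differences were 0.04 in sh, -0.23 in sd and -0.56 in dd, with 4, 2 and 2 positive. Otx2, a regulator of early neural and epiblast fate, had differences of 0.56, 1.36 and 1.25 in sh, sd and dd, none of them called. In replicate 2 it had 5.44 FPKM in sh, 7.45 in sd, 7.16 in dd and 5.50 in control. In replicate 1 it had 1.45 FPKM in sh, 4.65 in sd, 4.04 in dd and 0.111 in control. The sh difference thus came from replicate 1, where the control value was near 0. The part of these markers in the splicing factor differences was not tested.

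By family, the median log2 differences of the Srsf genes were 0.29 in sh, 0.57 in sd and 0.73 in dd, with 10, 9 and 9 of 10 positive. Those of the Hnrnp genes were 0.28, 0.38 and 0.42, with 18, 15 and 16 of 20 positive. Those of the Sf3 genes were 0.27, 0.43 and 0.35, with 7 of 9 positive in each. The families' differences from one another were not tested.

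A treated library can be set against the control library of the same number, which gives 6 differences per gene. Of the 39 genes, 17 were higher in all 6 differences, or 43.6%, beside 15% of all genes tested. None was lower in all 6, beside 3.66% of all genes. The 17 were Srsf2, Srsf6, Srsf7, Srsf10 and Srsf12, then Hnrnpa2b1, Hnrnpa3, Hnrnpc, Hnrnpdl, Hnrnph1, Hnrnph2, Hnrnph3, Hnrnpr and Hnrnpu, and Sf3a1, Sf3a3 and Sf3b2. The count rests on 2 control libraries and on the scaling. It was 9 of 39 with quantile normalization, beside 11.6% of all genes, and 7 of 39 with median ratio scaling, beside 8.67%. Within replicate 2 alone 32 of 39 genes were higher in all 3 treated libraries, beside 35.1% of all genes, and within replicate 1 alone 20 of 39, beside 43.3%. Control replicate 2, the shallowest library, held the lowest value of its number for 32 of 39 splicing factor genes, beside 35.1% of all genes. The library of dd replicate 2 held the highest for 23 of 39, beside 23.3%, and was also the replicate 2 library with the lowest share of olfactory receptor genes above 0. The part of depth and of that share in the counts was not tested. The map of differences from control shows the pattern gene by gene.

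**Figure D3:**
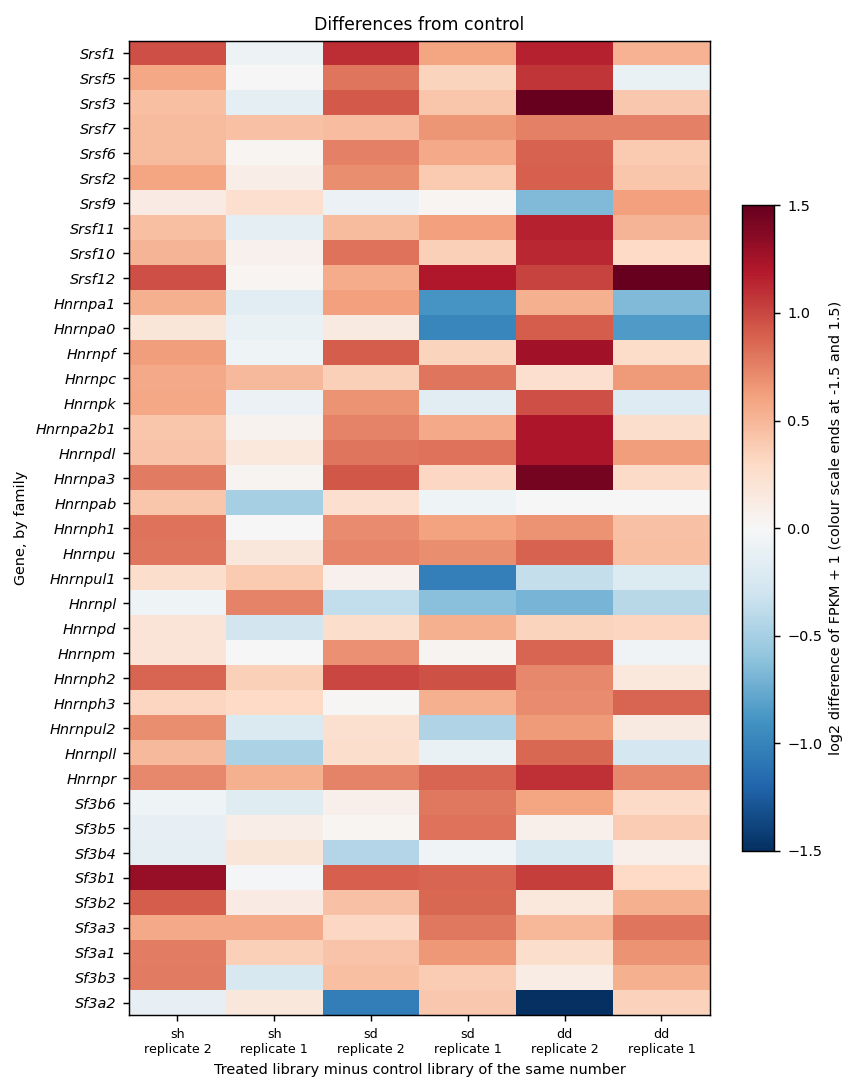
Difference of log2(FPKM + 1) between each treated library and the control library of the same number, for the 39 genes tested. Red is higher and blue lower than control. Hnrnpa1 and Hnrnpa0 are red in the sh, sd and dd replicate 2 columns and blue in the replicate 1 columns, whereas Srsf7 and Sf3a1 are red in all 6.

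Srsf7 and Sf3a1 were the only genes of the set with all 6 treated libraries above both control libraries, 2 of 39 beside 3.77% of all genes tested. None had all 6 below both, beside 0.728% of all genes. Srsf7, an SR protein with a zinc knuckle that also takes part in messenger RNA export, had 90.0 and 80.5 FPKM in sh replicates 2 and 1, 89.7 and 94.1 FPKM in sd replicates 2 and 1, 110 and 100 FPKM in dd replicates 2 and 1, and 64.7 and 59.3 FPKM in control replicates 2 and 1. The groups did not overlap with control, and the highest values were those of dd. The means were 85.2 ± 6.72 FPKM in sh, 91.9 ± 3.05 FPKM in sd, 105 ± 6.48 FPKM in dd and 62.0 ± 3.82 FPKM in control (SD, n = 2 each). The log2 differences from control were 0.45 in sh, 0.56 in sd and 0.75 in dd. Their SE was 0.59 each without the replicate block and 0.29 each with it. The fit without the block leaves the difference between the replicate numbers in its spread. In that fit the limma adjusted p was 1 in each comparison. With the block it was 0.999 in sh, 0.723 in sd and 0.553 in dd. Sf3a1, which encodes the largest SF3a subunit, had 12.5 and 10.0 FPKM in sh replicates 2 and 1, 9.70 and 12.5 FPKM in sd replicates 2 and 1, 8.51 and 12.8 FPKM in dd replicates 2 and 1, and 6.94 and 7.61 FPKM in control replicates 2 and 1. Its treated values lay close above the control values, the lowest being dd replicate 2. Its log2 differences were 0.56 in sh, 0.54 in sd and 0.47 in dd. The SE was 0.52 each without the block, with a limma adjusted p of 1 in each, and 0.36 each with the block. Leaving out 1 library moved the dd difference over 0.20 to 0.74 without the block, and the sh difference over 0.25 to 0.87 with it.

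In the fit without the block, the other genes with the smallest unadjusted p against control were Sf3b1, Hnrnph2 and Srsf12, none of which passed. With the block the smallest unadjusted p were those of Hnrnph2 in sh (0.111) and sd (0.0202) and of Hnrnpdl in dd (0.0188), none of which passed after adjustment either. For Sf3b1, whose library values are given above, the log2 difference was 0.64 in sh and 0.88 in sd. Without the block the SE was 0.60 each, with an unadjusted limma p of 0.323 and 0.187. With the block the SE was 0.41 each. The sh difference was 1.30 within replicate 2 and -0.02 within replicate 1. Hnrnph2, an X-linked relative of Hnrnph1 that binds guanine runs, had 11.96 and 18.9 FPKM in sh replicates 2 and 1, 13.1 and 29.2 FPKM in sd replicates 2 and 1, 10.6 and 16.4 FPKM in dd replicates 2 and 1, and 6.07 and 14.6 FPKM in control replicates 2 and 1. Its sd difference was 0.98 (SE 0.70 without the block and 0.35 with it), with an unadjusted limma p of 0.211 without the block. That difference was 0.999 within replicate 2 and 0.954 within replicate 1. Srsf12, an SR protein known to counteract other SR proteins in splice site choice, was close to the limit of detection. It had 87 reads and 1 read in sh replicates 2 and 1, 60 and 83 reads in sd replicates 2 and 1, 133 and 147 reads in dd replicates 2 and 1, and 6 and 0 reads in control replicates 2 and 1. These were 1.98 and 0.0231 FPKM in sh replicates 2 and 1, 1.24 and 1.30 FPKM in sd replicates 2 and 1, 2.07 and 2.44 FPKM in dd replicates 2 and 1, and 0.521 and 0 FPKM in control replicates 2 and 1. Both dd libraries were above both control libraries, as were both sd libraries, whereas the sh libraries straddled them. Its reads were also pooled over the libraries of a group and scaled to total reads. Against control they were 5.33 times in sh (exact 95% interval 2.35 to 14.9), 6.72 times in sd (3.01 to 18.6) and 11.9 times in dd (5.39 to 32.7). These intervals hold for counting error only and leave out the spread between libraries, such as 87 reads and 1 read in sh. The pools also mix replicate numbers of unequal depth, and the deeper control library, replicate 1, had 0 reads. In sh, sd and dd the log2 differences were 0.97, 0.56 and 1.01 within replicate 2, and 0.03, 1.20 and 1.78 within replicate 1. The log2 difference was 1.398 in dd (SE 0.68 without the block and 0.55 with it). Without the block its unadjusted limma p was 0.0813 and its adjusted p 1.

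In Hnrnpa1 and Hnrnpa0 the differences had opposite signs in the numbers. Hnrnpa1 differed from control by 0.53 within replicate 2 and -0.17 within replicate 1 in sh, by 0.62 and -0.89 in sd, and by 0.53 and -0.66 in dd, on the log2 scale. Hnrnpa0 differed by 0.19 and -0.10 in sh, by 0.13 and -0.98 in sd, and by 0.91 and -0.85 in dd. Hnrnpl, which binds CA-rich stretches and regulates its own splicing, was lower within both numbers in sd (-0.37 and -0.63) and dd (-0.70 and -0.41). In sh it was -0.06 within replicate 2 and 0.75 within replicate 1. Sf3a2, the SF3a subunit with a zinc finger, was -0.13, -1.04 and -2.03 within replicate 2 in sh, sd and dd, and 0.17, 0.40 and 0.34 within replicate 1.

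The treatments were also set against each other. No gene was called between them by limma (0% of 14561 genes in each of the 3 comparisons). At an unadjusted p under 0.05, 13 genes passed in sd against sh, 14 in dd against sh and 8 in dd against sd, none of them a splicing factor gene of the set. With the block 0 genes were called as well, and 330, 620 and 147 genes, among them 1, 2 and 0 splicing factor genes, had an unadjusted p under 0.05. With voom 0 genes were called. The median log2 difference of the 39 genes was 0.21 in sd against sh, 0.20 in dd against sh and 0.06 in dd against sd, beside 0.00, -0.09 and -0.09 over all genes.

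Replicate 2 against replicate 1 gave the largest differences. With the group as a term, limma called 61.3% of all 14561 genes, 46.6% higher and 14.6% lower in replicate 2. Of the 39 splicing factor genes, 28 were called, 5 higher and 23 lower in replicate 2. Their median log2 difference was -0.71, beside 0.73 over all genes tested. Scaling moved both, since the median over all genes was 0.02 with quantile normalization and 0.30 with median ratio scaling, and that of the splicing factor genes was then -1.39 and -1.28. Genes called higher and lower numbered 6787 and 2133 as reported, 4015 and 4343 with quantile normalization, and 5174 and 3480 with median ratio scaling. For the splicing factor genes these numbers were 5 and 23, 3 and 28, and 3 and 27. Without the filter on low values 17 of 40 were called, beside 5394 of 52338 genes. The calls of Hnrnpa3, Hnrnpab, Hnrnpc, Hnrnpm, Hnrnpu, Sf3a2, Sf3b3, Srsf2, Srsf3, Srsf5 and Srsf11 were lost there. Of the 28 calls, 19 to 26 were kept when 1 library at a time was left out, fewest without either sd library, where Hnrnpab, Hnrnpc, Hnrnph2, Hnrnpm, Hnrnpr, Hnrnpu, Sf3b3, Srsf2 and Srsf11 were lost. Without 1 library of another group the calls lost were among Hnrnpab, Hnrnpc, Hnrnpm, Hnrnpu, Sf3b3, Srsf2 and Srsf11. Under these settings, the pseudocount of 0.1, the stricter filter, both other scalings and voom, 14 of the 28 calls were never lost. In 19 of 39 genes all 4 replicate 2 values lay below all 4 replicate 1 values, beside 14.2% of all genes tested. In 5 of 39 they lay above, beside 41.9%. The plot of replicate differences orders the genes by this difference.

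**Figure D4:**
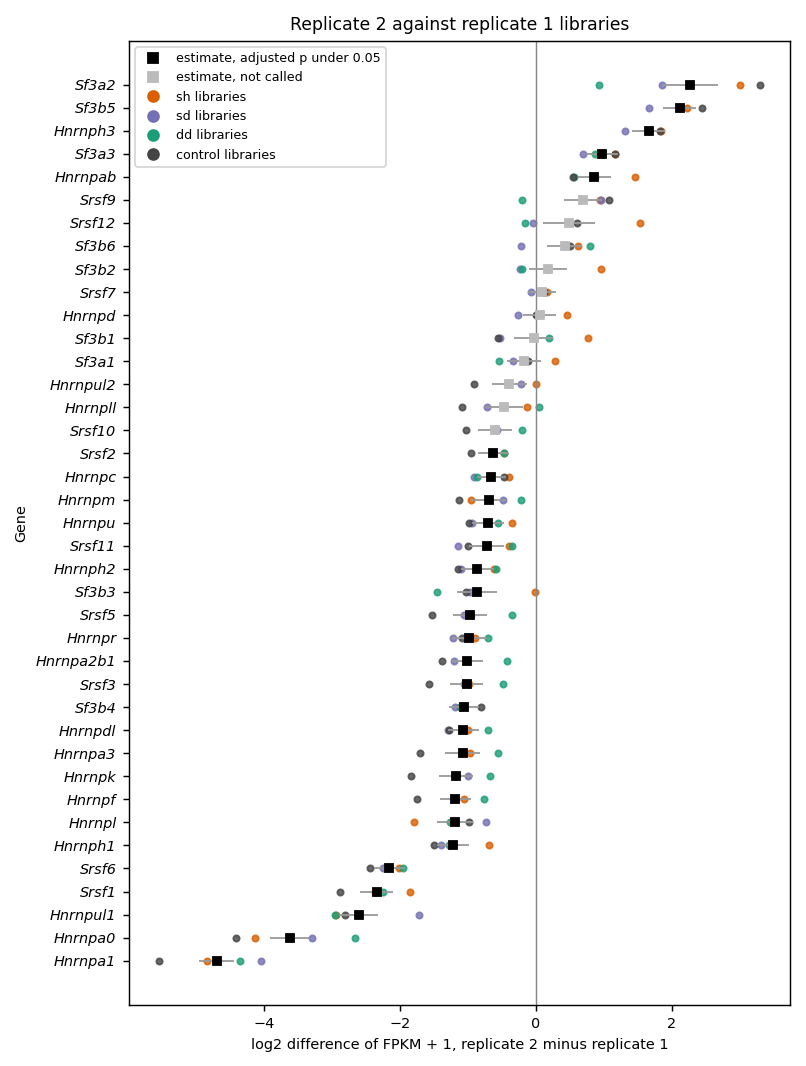
Difference of log2(FPKM + 1), replicate 2 minus replicate 1, for the 39 genes tested. Squares are limma estimates with their standard errors, black where the adjusted p was under 0.05, and coloured points are the differences within each group. Hnrnpa1 and Hnrnpa0 lie lowest, and Sf3a2, Sf3b5 and Hnrnph3 highest.

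The Hnrnp family held most of the lower calls, with 15 of 20 lower and 2 higher, beside 14.6% lower and 46.6% higher of all genes tested. Hnrnpa1, on chromosome 15, had a log2 difference of -4.70 (SE 0.26, limma adjusted p = 3.14e-06), with values of 68.7 to 106 FPKM in replicate 2 and 1769 to 3269 FPKM in replicate 1. Hnrnpa0, a gene without introns at chr13:58125879-58128556 on the minus strand, had a difference of -3.63 (SE 0.29, limma adjusted p = 1.61e-05). Hnrnpul1, a relative of Hnrnpu active in DNA damage signalling, had a difference of -2.61, with 3.78 to 6.39 FPKM in replicate 2 and 20.1 to 55.8 FPKM in replicate 1. The other 12 lower calls were Hnrnph1, Hnrnpl, Hnrnpf, Hnrnpk, Hnrnpa3, Hnrnpdl, Hnrnpa2b1, Hnrnpr, Hnrnph2, Hnrnpu, Hnrnpm and Hnrnpc, from -1.22 to -0.66. The higher calls were Hnrnph3 and Hnrnpab. Hnrnph3, whose product takes part in the arrest of splicing after heat shock, had 21.5 and 5.24 FPKM in sh replicates 2 and 1, 17.1 and 6.32 FPKM in sd replicates 2 and 1, 28.3 and 8.25 FPKM in dd replicates 2 and 1, and 16.9 and 4.06 FPKM in control replicates 2 and 1. All replicate 2 values were above all replicate 1 values, and the difference was 1.66 (SE 0.24, limma adjusted p = 0.000436). Hnrnpab, whose product also binds single-stranded DNA, had 75.7 and 26.8 FPKM in sh replicates 2 and 1, 67.7 and 36.6 FPKM in sd replicates 2 and 1, 56.9 and 38.1 FPKM in dd replicates 2 and 1, and 56.6 and 38.3 FPKM in control replicates 2 and 1, a difference of 0.86 (SE 0.25, limma adjusted p = 0.014). That call was lost with quantile normalization (0.25, adjusted p = 0.388), with median ratio scaling (0.29, adjusted p = 0.345), without the filter on low values (adjusted p = 0.0712), without either sh library (0.66) and without either sd library (0.86). Hnrnpab overlaps Phykpl and Hnrnph3 overlaps Rufy2, on the other strand. Hnrnpd (0.05), Hnrnpul2 (-0.39) and Hnrnpll (-0.47) were not called.

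In the Srsf family 6 of 10 genes were lower and none higher in replicate 2, beside 14.6% lower and 46.6% higher of all genes tested. Srsf1 had a log2 difference of -2.34 (SE 0.24, limma adjusted p = 5.54e-05), and its values by library are given above. Srsf6, an SR protein with a pair of RNA recognition motifs, had 25.2 and 105 FPKM in sh replicates 2 and 1, 30.9 and 151 FPKM in sd replicates 2 and 1, 34.0 and 134 FPKM in dd replicates 2 and 1, and 17.9 and 102 FPKM in control replicates 2 and 1. Its replicate 2 values were all below its replicate 1 values, with a difference of -2.17 (SE 0.22, limma adjusted p = 5.30e-05). Srsf3 (-1.02), Srsf5 (-0.97), Srsf11 (-0.73) and Srsf2 (-0.63) were called lower as well. Srsf10 (-0.60), Srsf7 (0.09), Srsf12 (0.49) and Srsf9 (0.70) were not called. The Srsf7 values of the numbers overlapped.

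Of the 9 Sf3 genes, 3 were called higher and 2 lower in replicate 2, beside 46.6% higher and 14.6% lower of all genes tested. Sf3a2 had 15.0 and 0.986 FPKM in sh replicates 2 and 1, 7.49 and 1.33 FPKM in sd replicates 2 and 1, 3.27 and 1.24 FPKM in dd replicates 2 and 1, and 16.5 and 0.762 FPKM in control replicates 2 and 1. The replicate 2 values were higher in every group, least so in dd, with a log2 difference of 2.28 (SE 0.40, limma adjusted p = 0.0012), and the call was lost without the filter on low values (adjusted p = 0.0529). Sf3b5, a small SF3b subunit, had 49.5 and 9.84 FPKM in sh replicates 2 and 1, 55.3 and 16.7 FPKM in sd replicates 2 and 1, 57.2 and 12.1 FPKM in dd replicates 2 and 1, and 54.2 and 9.09 FPKM in control replicates 2 and 1. The replicate 2 values lay close together and above all replicate 1 values, with a difference of 2.12 (SE 0.24, limma adjusted p = 9.87e-05). Sf3a3, the remaining SF3a gene, was higher by 0.98, with 14.2 to 21.5 FPKM in replicate 2 and 5.77 to 10.8 FPKM in replicate 1, a call lost with quantile normalization and with median ratio scaling. Sf3b4, mutated in Nager syndrome, a human disorder of face and limbs, had 20.4 and 45.4 FPKM in sh replicates 2 and 1, 16.2 and 38.3 FPKM in sd replicates 2 and 1, 18.9 and 42.0 FPKM in dd replicates 2 and 1, and 22.4 and 39.9 FPKM in control replicates 2 and 1. Its replicate 2 values were below its replicate 1 values, with a difference of -1.06 (SE 0.23, limma adjusted p = 0.00345). Sf3b3, a large SF3b protein built of beta propellers, had 7.87 and 7.90 FPKM in sh replicates 2 and 1, 6.04 and 12.8 FPKM in sd replicates 2 and 1, 4.56 and 14.2 FPKM in dd replicates 2 and 1, and 4.16 and 9.55 FPKM in control replicates 2 and 1. Its difference was -0.87 (SE 0.29, limma adjusted p = 0.029), near 0 in sh, and the call was lost without either library of control (-0.81), sd (-0.83) or dd (-0.67) and without the filter on low values. Sf3a1 (-0.17), Sf3b1 (-0.03), Sf3b2 (0.17) and Sf3b6 (0.42) were not called. Sf3a2 overlaps Plekhj1 and Sf3b3 overlaps Cog4 on the other strand. Snord111 and Gm22193 lie within Sf3b3, and Gm22027 within Sf3b4, on the same strand.

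Pseudogene copies took a share of the reads that also moved with the number. Of the 40 genes, 15 had at least 1 annotated pseudogene sharing 100 or more stretches of 31 bases with them, 71 copies in all. Shares in copies were not computed for genes outside the set. Of all genes with values, 62.4% to 89.0% were above 0 in the replicate 2 libraries and 30.9% to 37.7% in replicate 1. In every one of the 15 genes, and in all 4 groups, the share of reads assigned to the copies was higher in replicate 2. For Hnrnpa1, with 11 copies, it was 62.3% in sh, 54.8% in sd, 26.1% in dd and 53.1% in control among the replicate 2 libraries, against 0.112% in sh, 0.382% in sd, 0.326% in dd and 0.122% in control among the replicate 1 libraries. For Hnrnpa3, with 36 copies, it was 58.3% to 76% in replicate 2 and 18.1% to 25.4% in replicate 1. The lowest replicate 2 share of both genes was that of dd. How reads that fit several places were counted is not given in the sources used here.

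**Figure D5:**
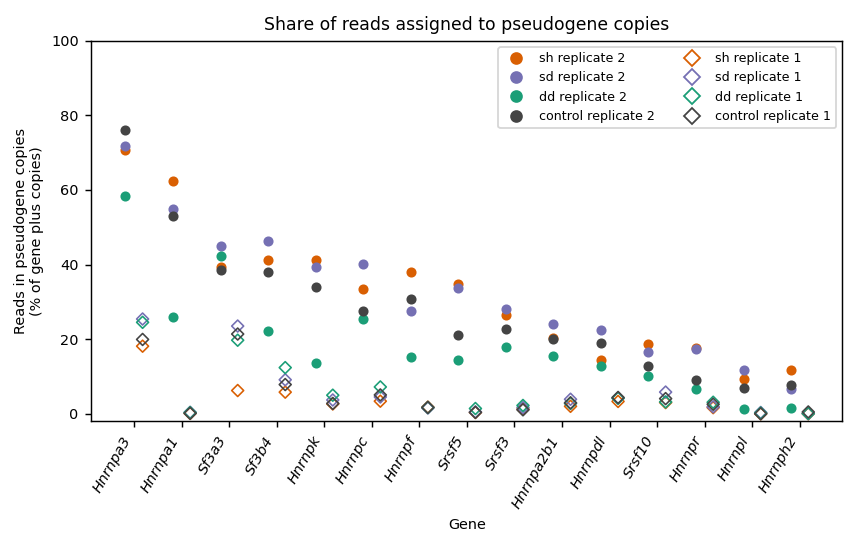
Share of reads assigned to pseudogene copies, as a percentage of reads of the gene plus its copies, for the 15 genes with such copies. Filled circles are replicate 2 libraries, open diamonds replicate 1 libraries, and colours are groups. The circles lie above the diamonds of the same colour for every gene.

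Adding the reads of the copies to those of the gene changed some comparisons and left others. For Hnrnpa1 the gene with its copies had an RPM (reads scaled to the library total) of 425 to 837 in replicate 2 and 5600 to 10320 in replicate 1, still far apart. For Hnrnpa3 the gene alone had an RPM of 106 to 295 in replicate 2 and 357 to 444 in replicate 1, whereas with its copies it had 440 to 731 in replicate 2 and 446 to 596 in replicate 1. The numbers thus no longer separated for Hnrnpa3. For Hnrnpc the numbers already overlapped in the gene alone, with an RPM of 285 to 424 in replicate 2 and 396 to 691 in replicate 1. With its copies it had 394 to 638 in replicate 2 and 417 to 723 in replicate 1. Counting the gene alone, 10 of the 15 genes had all replicate 2 values below all replicate 1 values, beside 14.2% of all genes tested. With the copies 7 of 15 did, and no share over all genes was computed for that count. Among the 15 genes with copies limma called 13 lower and 1 higher in replicate 2, with a median log2 difference of -1.02. Among the 24 tested genes without such copies it called 10 lower and 4 higher, with a median of -0.28. Of all genes tested, 14.6% were called lower and 46.6% higher, with a median of 0.73. Hnrnpa0, Hnrnpul1, Srsf1 and Srsf6, 4 of the 5 genes with the largest decreases, had no such copy.

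The promoters of the genes at the ends of these comparisons are shown for their sequence context, as 300 bases around the annotated start, from the RefSeq table of build GRCm38.p6. Of the 40 genes, 36 matched that table. Hnrnpa1 and Hnrnpa0 are those with the largest differences between numbers, and Srsf7 and Sf3a1 are those above control in all treated libraries. Each is written 5′ to 3′ on the strand of its gene, and capitals mark matches on either strand to 6 short motifs, namely the GC box GGGCGG, the CCAAT box CCAAT, the TATA box TATAAA, an Ets core CCGGAAG, a YY1 core AAGATGG and the cyclic AMP element TGACGTCA. The regions are chr15:103240147-103240446 on the plus strand for Hnrnpa1, chr13:58128507-58128806 on the minus strand for Hnrnpa0, chr17:80207256-80207555 on the minus strand for Srsf7, and chr11:4160104-4160403 on the plus strand for Sf3a1.
Hnrnpa1: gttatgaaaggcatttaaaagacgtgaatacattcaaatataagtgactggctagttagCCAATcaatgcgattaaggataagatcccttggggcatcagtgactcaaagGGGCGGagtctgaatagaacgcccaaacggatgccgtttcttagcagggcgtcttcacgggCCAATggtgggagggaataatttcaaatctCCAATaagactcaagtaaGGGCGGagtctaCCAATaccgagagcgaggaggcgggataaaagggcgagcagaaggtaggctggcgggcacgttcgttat
Hnrnpa0: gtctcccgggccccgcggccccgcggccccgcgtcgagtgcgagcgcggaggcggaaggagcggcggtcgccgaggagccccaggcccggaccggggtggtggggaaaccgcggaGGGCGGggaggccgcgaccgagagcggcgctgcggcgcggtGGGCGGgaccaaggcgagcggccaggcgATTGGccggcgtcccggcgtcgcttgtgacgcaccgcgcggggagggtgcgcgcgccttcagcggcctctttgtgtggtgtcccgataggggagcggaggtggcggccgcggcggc
Srsf7: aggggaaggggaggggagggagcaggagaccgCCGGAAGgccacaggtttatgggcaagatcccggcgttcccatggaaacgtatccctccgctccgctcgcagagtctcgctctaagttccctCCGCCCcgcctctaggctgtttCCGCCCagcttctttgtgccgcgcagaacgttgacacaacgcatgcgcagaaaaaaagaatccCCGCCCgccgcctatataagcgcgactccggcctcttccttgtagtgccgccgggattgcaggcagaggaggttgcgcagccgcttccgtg
Sf3a1: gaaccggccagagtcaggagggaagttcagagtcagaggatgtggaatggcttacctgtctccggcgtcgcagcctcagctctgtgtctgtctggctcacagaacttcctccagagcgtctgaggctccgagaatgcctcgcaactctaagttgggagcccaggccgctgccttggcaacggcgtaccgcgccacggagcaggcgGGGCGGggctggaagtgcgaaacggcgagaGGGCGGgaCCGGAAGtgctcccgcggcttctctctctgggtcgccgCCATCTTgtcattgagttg

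The Hnrnpa1 promoter held 4 CCAAT boxes and 2 GC boxes with 48.3% GC, and the Hnrnpa0 promoter 1 CCAAT box and 2 GC boxes with 79.7% GC. The Srsf7 promoter held 3 GC boxes and 1 Ets core, and the Sf3a1 promoter 2 GC boxes, 1 Ets core and 1 YY1 core. Among the 36 genes with a promoter, 28 held a GC box, 19 a CCAAT box, 5 a TATA box, 12 an Ets core, 2 a YY1 core and 0 the cyclic AMP element. A gene was counted if any of its promoters in that table held the motif. Over 32851 promoters of that length in the table these motifs were in 35.7%, 37.4%, 13.6%, 8.86%, 6.34% and 1.79%. Those shares count single promoters and not genes, so they are not measured like the gene counts. A match says only that the letters are present in the window.

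Other parts of the splicing machinery were read from the same fits. None of their genes was called by limma against control in sh, sd or dd, and 0 had an unadjusted p under 0.05. The lists covered U1, U2 and Sm proteins (13 genes tested), 3′ splice site recognition (8), U5 and tri-snRNP proteins (12), SR-related proteins (11), SR protein kinases and their importer (7), and other hnRNP proteins and splicing regulators (18). The last list leaned upward from control as well, with 17, 15 and 16 of 18 positive in sh, sd and dd. Its medians were 0.28, 0.53 and 0.54. The other lists were mostly positive too, beside 65.5%, 62.9% and 53.6% of all genes. SR-related proteins had 10, 9 and 9 of 11 positive, and the kinases and importer 7, 6 and 6 of 7. U1, U2 and Sm proteins had 11, 11 and 10 of 13. U5 and tri-snRNP proteins had 11, 7 and 8 of 12, and 3′ splice site recognition 6, 6 and 5 of 8. Among the other hnRNP proteins and regulators 8 of 18, or 44.4%, were higher in all 6 differences from the control library of the same number. In the other lists this share was 12.5% to 33.3%, beside 15% of all genes tested. In replicate 2 against replicate 1, where 46.6% of all genes were called higher and 14.6% lower, U1, U2 and Sm proteins had 7 of 13 genes higher and 2 lower, with a median log2 difference of 0.69, near the 0.73 of all genes. Snrpd2, a core Sm protein, was higher by 1.70, whereas Snrpb, another, had a difference of -1.74. SR-related proteins had 0 of 11 higher and 5 lower, with a median of -0.70, and Srrm2, a large spliceosome and speckle protein, had a difference of -3.36. The kinases and importer that phosphorylate and carry SR proteins had 1 of 7 higher and 3 lower, among them Srpk2 (-1.43). The other hnRNP proteins and regulators had 4 of 18 higher and 7 lower, with Raly (3.15) and Syncrip (-2.08) at the ends. Among the U5 and tri-snRNP proteins 3 of 12 were higher and 2 lower, and the helicase Ddx23 had a difference of -3.97. In 3′ splice site recognition 3 of 8 were higher and 3 lower, with Puf60 (1.98) and U2af2 (-1.69).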

How the data were processed

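RNA from mouse embryonic stem cells was sequenced in 8 libraries, 2 each of sh, sd, dd and control, grouped by the labels. The deposited values are FPKM per gene and library, per the file headers. Per the submitters' processing notes, CASAVA 1.4 and HISAT2 were used with the mm10 build. For the counting program, annotation, FPKM formula and strand the answer is the same: not given in the sources used here. Genes that overlap, on either strand, therefore may share reads. Of 58420 rows, 6082 had no value. Of the other 52338, 52081 matched a GENCODE M21 gene (GRCm38) by identifier and 257 did not.

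Deposited FPKM times exon length gave whole reads, within 0.02 of a read, for 98.3% to 98.9% of values under 100 reads, which gave depth, reads and floors of 3 reads. Floors and intervals hold for counting error alone, because the reads carry no molecular identifiers and may repeat a molecule.

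The test was limma 3.58.1 (R 4.3.3) on log2(FPKM + 1) with a mean-variance trend, for 14561 genes with a mean of at least 1 FPKM, two-sided, with Benjamini-Hochberg adjustment over all of them at 0.05. Differences on that scale understate changes of low genes. All 4 groups were fitted together without a block (4 residual degrees of freedom), and replicate 2 against replicate 1 was fitted with the group as a term. The code was tested on simulated data. Pseudogene copies were annotated pseudogenes sharing at least 100 stretches of 31 bases with a gene's transcripts. The exact intervals of read ratios used scipy 1.17.1.

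Alternatives were a pseudocount of 0.1, quantile and median ratio scaling, no filter or a minimum mean of 5 FPKM, only the groups compared, voom on recovered reads, the replicate block, and each library left out. Chosen after seeing the data were voom with the block, the count of genes higher in 6 of 6 differences under other settings, and adding the reads of copies. Values in every library are given for genes with the smallest p against control, the 3 most abundant of each family, and those with all treated libraries on 1 side of control. They are also given for the called genes of each family that differed most between the replicate numbers, in each direction. Other called genes are given by their difference or range. Of each other splicing list, examples are those with the smallest p. The genes and lists were chosen with earlier results of these data known.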

Additional observations from a re-analysis of the deposited data

How the results depend on the processing

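Depth was lowest in both control libraries, and its part in the comparisons was not tested. Of the counts of called genes and splicing factor genes against control, those under the pseudocount of 0.1, other filters, other scalings, only the groups compared, voom and the replicate block were all 0. Each replicate number was shared by 4 libraries, 1 per group, and the labels do not say that they mark a batch. Deviations from the group means correlated at 0.75 to 0.893 between libraries of the same number. With the replicate block the smallest adjusted p of a splicing factor gene was 0.999 in sh, 0.723 in sd and 0.553 in dd, and the block changed no call. With the replicate block and 1 library left out, genes called against control ranged over 0 to 102 in sh, 0 to 149 in sd and 0 to 167 in dd, the highest without control replicate 1, and over 0 to 11 in dd against sh, the highest without dd replicate 1. Splicing factor genes called stayed at 0 there. Without control replicate 2 the sd and dd counts were 1 and 1. With 1 library left out and no block, the median log2 difference of the splicing factor genes ranged over -0.21 to 0.80 in sh, 0.066 to 0.93 in sd and 0.17 to 1.01 in dd, reversed in sh without control replicate 2. With the replicate block these medians ranged over 0.15 to 0.47 in sh, with no reversal, 0.40 to 0.70 in dd and 0.36 to 0.65 in sd, the last being 0.41 without sd replicate 1 and 0.62 without sd replicate 2. Without the block, leaving out a library sets unequal replicate numbers against each other. The sd median was 0.40 with quantile normalization and 0.29 with median ratio scaling. In replicate 2 against replicate 1, 8920 of 14561 genes were called in the main fit. Without the filter 5394 of 52338 genes and 17 of 40 splicing factor genes were called. At a mean of at least 5 FPKM these were 5368 of 7503 and 29 of 37. The median of the splicing factor genes was -1.39 with quantile normalization and -1.28 with median ratio scaling. The splicing factor genes higher in 6 of 6 differences numbered 9 with quantile normalization and 7 with median ratio scaling. The causes were not tested.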
